A study of Rattus norvegicus with 8 samples.

Results

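The genes described here are the enzymes that put O-GlcNAc on proteins, take it off, and make, recycle or break down its sugar. They are 9 of the 32662 genes in the table, found by symbol, each on 1 row: Mgea5, Ogt, Gfpt1, Gfpt2, Gnpnat1, Pgm3, Uap1, Nagk and Gnpda1. The set was selected on the FPKM values of Mgea5, which were 7.31-fold lower after oxygen glucose deprivation, so the difference in Mgea5 is given as a description, without a test. The other 8 genes were taken for their place in the pathway, with earlier results of these data known.

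Messenger RNA was sequenced from primary oligodendrocyte precursor cells, the dividing glial cells from which myelinating oligodendrocytes arise. The cells came from the cerebral cortex of Sprague Dawley rats aged 1 to 2 days. They were taken as the non-adherent cells of mixed glial cultures grown in 20% FBS, and kept for 4 to 5 days in Neurobasal medium with 2% B27, 2 mM glutamine, 1% penicillin/streptomycin and the growth factors FGF and PDGF, each at 10 ng/ml. The OGD group (n = 4) spent 6 h without oxygen and glucose, a culture model of ischaemia, and the Control group (n = 4) was kept under normal conditions. Whether the 4 samples of a group came from separate cultures is not given in the labels, and p-values therefore rest on a spread that may be purely technical.

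O-GlcNAc is a sugar, N-acetylglucosamine, that is attached to serine and threonine residues of nuclear, cytoplasmic and mitochondrial proteins and is removed again within the life of the protein. Ogt is the transferase that attaches it and Mgea5, also called Oga or O-GlcNAcase, is the hydrolase that removes it. The donor, UDP-GlcNAc, is made by the hexosamine pathway from fructose 6-phosphate, glutamine, acetyl-CoA and UTP, so that the modification depends on glucose supply. In human and mouse cells the messenger RNAs of both cycling enzymes are known to respond to the amount of O-GlcNAc on proteins, in opposite directions.

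Values are FPKM, in which a gene's fragments are divided by its length and by the library total, so that levels of different genes can be compared. Relative depths read from the steps between low values were 0.816 to 1.18 times that of Control replicate 1, and total fragment numbers are unknown. The lineage markers Olig1 and Ptprz1 averaged 356.5 ± 28.0 and 270.6 ± 18.3 FPKM in OGD and 794.5 ± 41.4 and 341.8 ± 42.8 FPKM in Control (SD, n = 4 each), and 8 of 8 matched precursor markers passed the filter on low values. Of these 8, none rose, 5 fell (Pdgfra, Cspg4, Olig1, Gpr17 and Ptprz1) and 3 did not pass the test (Olig2, Sox10 and Nkx2-2), and their summed level was 1474 to 1703 FPKM in OGD libraries and 2241 to 2365 FPKM in Control libraries. Microglial markers moved with OGD: 11 of 12 fell (limma), of which Cx3cr1 and Ptprc entered the test through the Control libraries alone, none was at 0 in all libraries, and their summed level was 71.6 to 130.2 FPKM in OGD libraries and 211.6 to 344.5 FPKM in Control libraries. The highest of them, C1qa and C1qc, averaged 19.3 and 17.3 FPKM in OGD and 60.0 and 55.0 FPKM in Control. Myelin markers summed to 334.0 to 393.2 FPKM in OGD libraries and 594.2 to 776.3 FPKM in Control libraries, led by Cnp and Mbp, which averaged 194.0 and 114.9 FPKM in OGD and 358.9 and 239.8 FPKM in Control; of the 6, 1 rose and 4 fell. Astrocyte markers summed to 105.5 to 118.2 FPKM in OGD libraries and 111.9 to 124.8 FPKM in Control libraries (of 6 tested, 2 fell: S100b, and Gfap, which entered the test through the Control libraries alone), led by Aldoc and Sox9, at 49.2 and 44.1 FPKM in OGD and 54.0 and 37.1 FPKM in Control. Neuronal markers summed to 111.1 to 125.1 FPKM in OGD libraries and 97.6 to 103.6 FPKM in Control libraries (of 8, 2 rose and 3 fell), led by Tubb3 and Syn1, at 53.0 and 27.6 FPKM in OGD and 30.2 and 34.6 FPKM in Control. Vascular and stromal markers summed to at most 0.323 FPKM in OGD and 0.418 FPKM in Control, where Kdr and Cdh5 led at 0.0992 and 0.0332 FPKM in OGD and 0.110 and 0.0899 FPKM in Control, and Cldn5 was at 0 throughout. All these marker counts stand beside 22.7% rising and 26.8% falling among all tested genes, 49.5% called in all. The part of these other cells in the results below was not tested, and in cultures read in bulk fewer cells of a type and less RNA per cell cannot be told apart.

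The stretches of 250 bases before the transcription start are shown for Mgea5, Ogt and Gnpda1, the genes on which the results turn and for which a promoter was at hand. They are RefSeq sequences of build GRCr8, whereas the table was made on rn6 (Rnor_6.0). They run 5′ to 3′ on the gene's strand, and capitals mark each ACGTG, the core bound by hypoxia-inducible factors, on either strand. Mgea5 (listed as Oga) lies at chr1:254582270-254582519 on the minus strand, Ogt at chrX:70811085-70811334 on the plus strand (the first of 2 windows listed) and Gnpda1 at chr18:30428631-30428880 on the minus strand.
Mgea5: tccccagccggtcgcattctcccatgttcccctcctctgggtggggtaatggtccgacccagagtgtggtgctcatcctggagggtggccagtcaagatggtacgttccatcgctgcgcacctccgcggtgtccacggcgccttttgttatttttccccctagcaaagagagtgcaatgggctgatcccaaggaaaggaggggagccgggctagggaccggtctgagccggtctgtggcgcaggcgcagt
Ogt: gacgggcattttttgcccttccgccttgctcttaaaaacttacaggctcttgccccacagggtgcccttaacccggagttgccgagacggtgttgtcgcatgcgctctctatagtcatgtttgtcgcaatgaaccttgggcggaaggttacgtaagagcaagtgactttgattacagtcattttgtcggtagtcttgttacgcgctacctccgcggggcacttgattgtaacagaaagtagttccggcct
Gnpda1: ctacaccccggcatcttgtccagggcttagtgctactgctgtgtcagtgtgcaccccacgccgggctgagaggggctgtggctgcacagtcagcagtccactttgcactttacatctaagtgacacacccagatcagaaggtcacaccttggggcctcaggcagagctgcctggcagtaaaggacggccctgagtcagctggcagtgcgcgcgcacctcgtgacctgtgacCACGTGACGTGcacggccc
Gnpda1 held CACGTG, the E-box, whose first base lay 19 bases before the start, and a further ACGTG 13 bases before it. Its TGACGT, the core of the cyclic AMP response element, overlapped both. No ACGTG stood in the Mgea5 or Ogt stretch. Of the 7 members with a promoter, 3 held ACGTG (Gfpt1, Uap1 and Gnpda1), against 16.6% of 33469 promoters of the same length. CACGTG, which contains ACGTG, was in 1 of the 7, against 5.59% of all, and TGACGT in 2 of the 7 (Uap1 and Gnpda1), against 6.95%. The Sp1 box GGGCGG was in 4 of the 7, against 30.5%, and CCAAT in 2 of the 7, against 34.0%; both strands were read for every motif. These matches describe letters only.

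The comparison of OGD with Control asked how messenger RNA of the pathway differed after 6 h without oxygen and glucose. The hydrolase Mgea5 was lower, the transferase Ogt rose, and the first enzyme of sugar synthesis, Gfpt1, kept overlapping levels. Further along the pathway Pgm3 and Uap1 fell, and Gnpda1, which returns the amino sugar to glycolysis, fell to about 51.5% of its Control mean. Gnpda2, the paralog of Gnpda1 and outside the set, averaged 11.5 FPKM in OGD and 9.62 FPKM in Control and did not pass the test. All 9 genes had at least 1 FPKM in all 8 libraries, so none entered the test through 1 group alone. Of the 8 genes other than Mgea5, 1 rose, 3 fell and 4 did not pass (limma on log2(FPKM + 1), Benjamini-Hochberg adjustment over all 11149 genes tested, threshold 0.05). Of all tested genes 22.7% rose and 26.8% fell, 49.5% in all. OGD and Control libraries were fully apart in 3 of the 8 genes and in 44.7% of all tested genes. Since the set was drawn up around a gene lower in this comparison, nothing is read from the count. The median log2 change was 0.02 over the 8 genes and -0.04 over all tested genes.

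**Figure D1:**
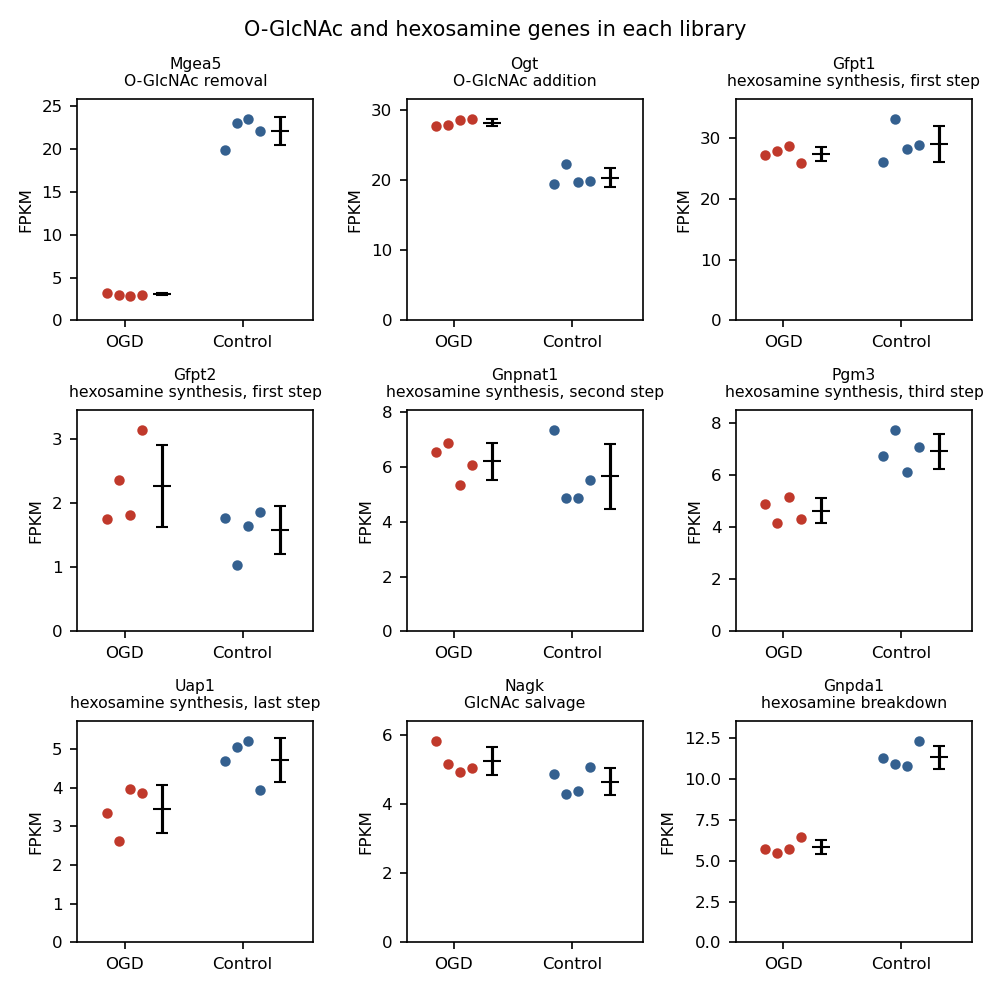
FPKM of each of the 9 genes in the 4 OGD (red) and 4 Control (blue) libraries, with the mean and SD in black; each axis starts at 0. Mgea5 lies between 2.90 and 3.18 FPKM in OGD and between 19.9 and 23.5 FPKM in Control, while Ogt lies higher in all 4 OGD libraries and Gfpt1 overlaps.

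Mgea5 (ENSRNOG00000017822) is the only known enzyme that removes O-GlcNAc from nuclear and cytoplasmic proteins. It had 3.18, 3.01, 2.90 and 3.02 FPKM in OGD replicates 1 to 4, against 19.9, 23.1, 23.5 and 22.1 FPKM in Control replicates 1 to 4. All OGD libraries were far below all Control libraries, and they differed little among themselves. The mean was 3.03 ± 0.117 FPKM in OGD and 22.1 ± 1.63 FPKM in Control (SD, n = 4 each), a level 7.31-fold lower. Between single libraries the ratio of Control to OGD ran from 6.23 to 8.10. On the log2(FPKM + 1) scale, which understates changes at low levels, the difference was -2.52. Of the 11149 tested genes only Txnip had a more negative log2 change on this scale. In FPKM that order need not hold: the microglial marker Cx3cr1, at a mean of 0.340 FPKM in OGD, was 12.1-fold lower than in Control. The mean level of Mgea5 was above 16.9% of tested genes in OGD and above 71.0% of them in Control.

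Ogt (ENSRNOG00000003359), the transferase, moved the other way and by less. It had 27.7, 27.8, 28.6 and 28.7 FPKM in OGD replicates 1 to 4, against 19.4, 22.3, 19.7 and 19.8 FPKM in Control replicates 1 to 4. Every OGD library lay above every Control library, and Control replicate 2 stood apart from the other Controls. The means were 28.2 ± 0.524 FPKM in OGD and 20.3 ± 1.35 FPKM in Control (SD, n = 4 each), a 1.39-fold rise. On the log2 scale it rose by 0.45 with a 95% interval of 0.31 to 0.60 (limma, adjusted p = 0.000251). The groups did not overlap with OGD above for 20.7% of all tested genes.

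Because both cycling enzymes are measured per length in the same library, their ratio can be given library by library. Ogt over Mgea5 was 8.68, 9.23, 9.86 and 9.49 in OGD replicates 1 to 4, against 0.978, 0.968, 0.840 and 0.894 in Control replicates 1 to 4. In Control the hydrolase was thus at or slightly above the transferase in each library, and in OGD it was far below it in each. The mean ratio was 9.32 ± 0.493 in OGD and 0.920 ± 0.0650 in Control (SD, n = 4 each). It contains the value that chose the set and was not tested. A ratio of FPKM values does not give protein or enzyme activity, and the deposited values are per gene, so transcripts that keep an intron, known for both genes in human and mouse cells, were not told apart from spliced ones.

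**Figure D2:**
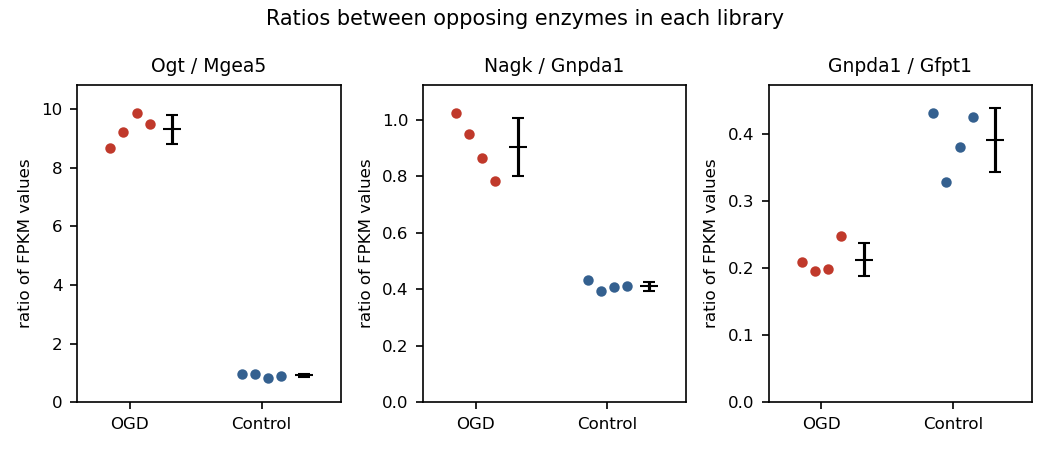
Ratios of FPKM values within each library for Ogt over Mgea5, Nagk over Gnpda1 and Gnpda1 over Gfpt1, in 4 OGD (red) and 4 Control (blue) libraries, with the mean and SD in black; each axis starts at 0. Ogt over Mgea5 was 8.68 to 9.86 in OGD and 0.840 to 0.978 in Control.

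Gfpt1 and Gfpt2 are paralogous amidotransferases that join fructose 6-phosphate and glutamine nitrogen in the rate-limiting first step. Gfpt1 (ENSRNOG00000018507) had 27.2, 27.9, 28.7 and 26.0 FPKM in OGD replicates 1 to 4, against 26.1, 33.2, 28.3 and 28.9 FPKM in Control replicates 1 to 4. The groups overlapped, with the highest value in Control replicate 2. The log2 change was -0.08 with a 95% interval of -0.25 to 0.09 (limma, adjusted p = 0.426). Gfpt2 (ENSRNOG00000002810) was low, with 1.75, 2.36, 1.82 and 3.14 FPKM in OGD replicates 1 to 4, against 1.77, 1.03, 1.64 and 1.86 FPKM in Control replicates 1 to 4. OGD replicates 2 and 4 lay above all Controls and OGD replicates 1 and 3 among them. Its log2 change was 0.34 with a 95% interval of -0.03 to 0.70 (limma, adjusted p = 0.115). Gfpt2 made up 5.96% to 10.8% of the summed FPKM of both paralogs in OGD and 3.01% to 6.35% in Control, so Gfpt1 was the main form in every library.

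Gnpnat1 and Pgm3 act next, the first adding the acetyl group and the second moving the phosphate. Gnpnat1 (ENSRNOG00000008641) had 6.54, 6.87, 5.32 and 6.07 FPKM in OGD replicates 1 to 4, against 7.34, 4.86, 4.87 and 5.53 FPKM in Control replicates 1 to 4. Its groups overlapped, the highest library being Control replicate 1. The log2 change was 0.13 with a 95% interval of -0.16 to 0.41 (limma, adjusted p = 0.440). Pgm3 (ENSRNOG00000009515) had 4.90, 4.18, 5.18 and 4.32 FPKM in OGD replicates 1 to 4, against 6.74, 7.74, 6.15 and 7.09 FPKM in Control replicates 1 to 4. All OGD libraries lay below all Controls. The means were 4.65 ± 0.476 FPKM in OGD and 6.93 ± 0.668 FPKM in Control (SD, n = 4 each), and the log2 change was -0.49 ± 0.10 (SE, limma, adjusted p = 0.00214).

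Uap1 joins the sugar phosphate to UTP and so makes UDP-GlcNAc. Uap1 (ENSRNOG00000002926) had 3.33, 2.61, 3.97 and 3.85 FPKM in OGD replicates 1 to 4, against 4.68, 5.06, 5.20 and 3.94 FPKM in Control replicates 1 to 4. Only OGD replicate 3 reached into the Control range, just above Control replicate 4. The means were 3.44 ± 0.619 FPKM in OGD and 4.72 ± 0.566 FPKM in Control (SD, n = 4 each), and the log2 change was -0.37 ± 0.13 (SE, limma, adjusted p = 0.0316). This call was lost without OGD replicate 1 (adjusted p = 0.0650), OGD replicate 2 (0.0802), Control replicate 1 (0.0566), Control replicate 2 (0.0768) or Control replicate 3 (0.0870). It was lost too with quantile normalization (0.0526), rescaling outside mitochondrial genes (0.0503) and no filter (0.0619). Summed over Gfpt1, Gfpt2, Gnpnat1, Pgm3 and Uap1, the synthetic enzymes had 43.4 to 45.0 FPKM in OGD libraries and 46.1 to 51.9 FPKM in Control libraries. The difference in this sum was not tested. Gfpt1 alone gave 59.9% to 63.8% of that sum in OGD and 56.0% to 64.0% in Control.

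Nagk phosphorylates N-acetylglucosamine freed by breakdown of glycans and brings it back into the pathway, and Gnpda1 converts glucosamine 6-phosphate to fructose 6-phosphate and ammonia, against the direction of Gfpt1. Gnpda1 (ENSRNOG00000047213) had 5.70, 5.45, 5.71 and 6.45 FPKM in OGD replicates 1 to 4, against 11.3, 10.9, 10.8 and 12.3 FPKM in Control replicates 1 to 4. The groups were well apart, as they were with OGD below for 24.1% of all tested genes. The means were 5.83 ± 0.429 FPKM in OGD and 11.3 ± 0.696 FPKM in Control (SD, n = 4 each), and the log2 change was -0.85 ± 0.08 (SE, limma, adjusted p = 1.90e-05). Of the tested genes 3.78% had a more negative change. Nagk (ENSRNOG00000013911) had 5.82, 5.17, 4.92 and 5.05 FPKM in OGD replicates 1 to 4, against 4.86, 4.29, 4.38 and 5.08 FPKM in Control replicates 1 to 4. OGD replicates 1 and 2 lay above all Controls and the other two did not. Its log2 change was 0.14 with a 95% interval of -0.06 to 0.35 (limma, adjusted p = 0.226). Nagk over Gnpda1 was 0.784 to 1.02 in OGD libraries and 0.393 to 0.431 in Control libraries. Gnpda1 over Gfpt1 was 0.196 to 0.248 in OGD libraries and 0.329 to 0.431 in Control libraries. In neither ratio did the groups overlap, but both contain Gnpda1, whose own groups were apart, and neither was tested. Gnpda2, the paralog of Gnpda1, is in neither ratio. Pgm3 over Gnpnat1 did overlap, at 0.609 to 0.974 in OGD libraries and 0.918 to 1.59 in Control libraries.

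**Figure D3:**
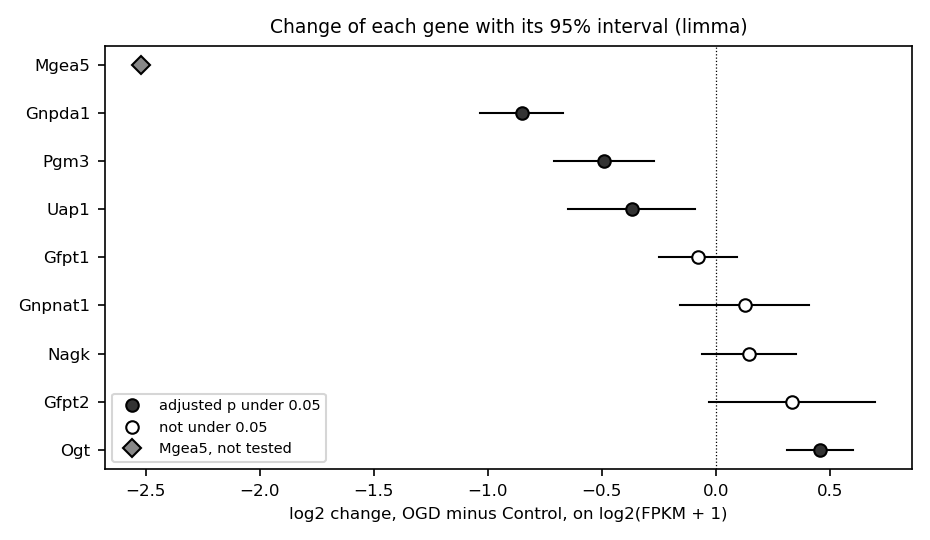
Log2 change of each of the 9 genes, OGD minus Control, on the log2(FPKM + 1) scale, with the 95% interval from limma for the 8 tested genes. Ogt lies right of 0, Gnpda1, Pgm3 and Uap1 lie left of it, the intervals of Gfpt1, Gnpnat1, Nagk and Gfpt2 include 0, and Mgea5 is drawn without a test at -2.52.

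The order of levels within the set differed between the groups. In OGD, Ogt and Gfpt1 led and overlapped each other. Gnpnat1, Gnpda1, Nagk and Pgm3 came next, each overlapping its neighbour, and Uap1, Mgea5 and Gfpt2 came last, again each overlapping its neighbour. In Control, Gfpt1 led and lay above the others, followed by Mgea5 and Ogt, which overlapped, then Gnpda1 apart from both neighbours, then Pgm3, Gnpnat1, Uap1 and Nagk, each overlapping its neighbour, and last Gfpt2. In OGD Gnpda1 overlapped Gnpnat1 and Nagk, whereas in Control it lay above both. The summed level of the 9 genes was 85.4 to 87.1 FPKM in OGD libraries and 102.1 to 112.5 FPKM in Control libraries. This sum contains Mgea5, the gene that chose the set, at a mean of 3.03 FPKM in OGD and 22.1 FPKM in Control. Its difference between the groups was not tested, and nothing is read from it. Spread was widest for Gfpt2, the lowest gene, with an SD of 28.4% of the mean in OGD and 23.7% in Control, and narrowest in OGD for Ogt (1.86%) and in Control for Gnpda1 (6.15%).

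The genes whose profile over the 8 libraries was nearest to that of Mgea5 were Fam212b, Txnip, Nrarp, Lbh and Klf10. Likeness was the root mean square difference of log2(FPKM + 1) values taken from each gene's own Control mean, which was 0.24, 0.27, 0.27, 0.31 and 0.41 in that order. Txnip, a glucose-responsive brake on glucose uptake, had 0.119, 0.339, 0.194 and 0.469 FPKM in OGD replicates 1 to 4, against 7.53, 8.68, 8.12 and 8.68 FPKM in Control replicates 1 to 4. Fam212b averaged 8.09 ± 0.404 FPKM in OGD and 40.6 ± 1.79 FPKM in Control (SD, n = 4 each). Nrarp, a feedback inhibitor of Notch signalling, averaged 2.12 ± 0.606 FPKM in OGD and 13.6 ± 0.921 FPKM in Control. Lbh averaged 37.1 ± 8.50 FPKM in OGD and 184.5 ± 20.8 FPKM in Control. In all of these genes, and in the zinc-finger factor Klf10 (4.95 ± 0.587 FPKM in OGD and 22.3 ± 1.72 FPKM in Control), the OGD libraries were all below the lowest Control. With 2 groups this measure mainly picks genes with a difference of like size on the log2(FPKM + 1) scale. It says nothing of shared control. Txnip was under 1 FPKM in every OGD library, so it entered the test through the Control libraries alone. At such levels this scale understates the difference, and in FPKM Txnip was lower by a larger factor than Mgea5.

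**Figure D4:**
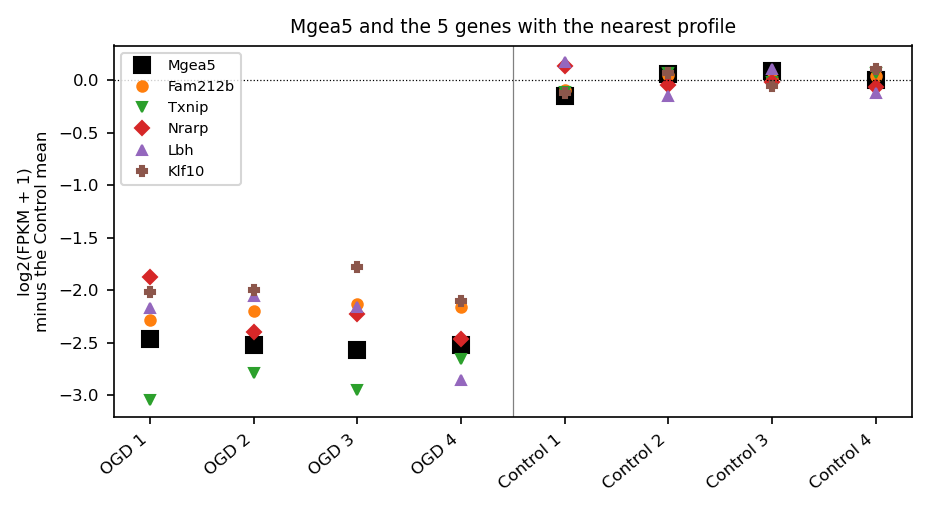
Level of Mgea5 (black squares) and of the 5 genes nearest to it in each library, as log2(FPKM + 1) minus the gene's Control mean. Mgea5 lies near -2.5 in all 4 OGD libraries, and of the others Lbh spreads most in OGD, from 24.5 to 43.3 FPKM.

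Genes around the pathway were read from 6 lists. Their counts stand beside 22.7% rising and 26.8% falling among all tested genes, 49.5% called in all, and nothing particular to a list is read from them. In precursor supply, the transporters and enzymes that deliver glucose, glutamine, acetyl-CoA and UTP, 7 of 15 tested genes rose, 3 fell and 5 did not pass, with a median log2 change of 0.14. Slc2a1, the glucose transporter GLUT1, averaged 46.5 ± 4.98 FPKM in OGD and 5.42 ± 0.797 FPKM in Control (SD, n = 4 each), and its log2 change was 2.89. Hk2, a hexokinase, had 18.9, 25.4, 25.3 and 18.8 FPKM in OGD replicates 1 to 4, against 2.32, 3.19, 2.60 and 2.36 FPKM in Control replicates 1 to 4, with a log2 change of 2.67 and a limma adjusted p of 1.23e-07. Among the falls were Nme1, a nucleoside diphosphate kinase that makes UTP (log2 change -0.58), and Glul, glutamine synthetase, at 64.2 ± 3.35 FPKM in OGD and 83.6 ± 4.37 FPKM in Control (SD, n = 4 each; log2 change -0.38).

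The next list held transferases other than Ogt that use UDP-GlcNAc, and proteins that help them. Of its 17 tested genes 1 rose, 7 fell and 9 did not pass, beside 22.7% rising and 26.8% falling among all genes. The median log2 change was -0.06. Alg14, which helps add the second sugar of the N-glycan precursor, had 3.78, 3.91, 4.75 and 4.52 FPKM in OGD replicates 1 to 4, against 8.94, 8.55, 8.72 and 8.19 FPKM in Control replicates 1 to 4 (log2 change -0.88 ± 0.09, SE, limma, adjusted p = 2.89e-05). Extl2, a heparan sulphate pathway enzyme, averaged 7.95 ± 1.67 FPKM in OGD and 14.2 ± 0.518 FPKM in Control (SD, n = 4 each; log2 change -0.78). Eogt, which attaches O-GlcNAc to extracellular protein domains in the endoplasmic reticulum, was among the falls, at 0.950 ± 0.212 FPKM in OGD and 2.20 ± 0.221 FPKM in Control (SD, n = 4 each; log2 change -0.72, limma, adjusted p = 0.000805), and was named after its value was seen. The rise was that of Has2, a hyaluronan synthase, with 3.35, 3.03, 3.01 and 2.31 FPKM in OGD replicates 1 to 4, against 0.681, 0.485, 0.516 and 0.504 FPKM in Control replicates 1 to 4 (log2 change 1.34). Has2 passed the filter through the OGD libraries alone, so its call is no support for a direction of the list. Without Control replicate 1, 2 of the list rose.

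**Figure D5:**
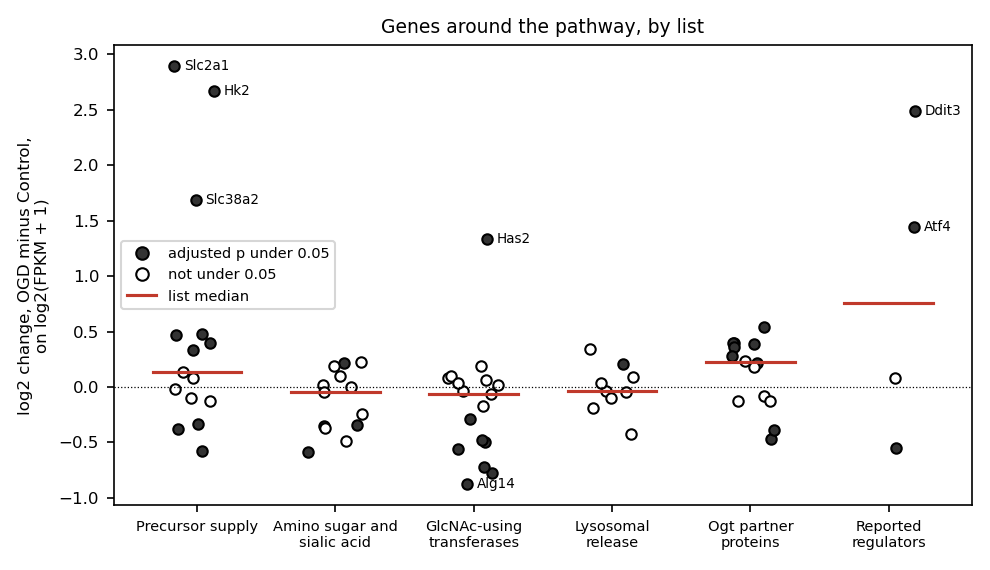
Log2 change of each tested gene of the 6 lists, OGD minus Control, on the log2(FPKM + 1) scale; filled points passed the limma test and red lines are list medians. Slc2a1, Hk2, Slc38a2, Ddit3, Atf4 and Has2 lie highest, and Alg14 lowest.

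Among enzymes of amino sugars and sialic acid, 1 of 13 tested genes rose, 3 fell and 9 did not pass, beside 22.7% rising and 26.8% falling among all genes, with a median log2 change of -0.04. Nans, sialic acid synthase, averaged 13.4 ± 1.70 FPKM in OGD and 20.7 ± 2.03 FPKM in Control (SD, n = 4 each; log2 change -0.59, limma, adjusted p = 0.000677). Cmas, which activates sialic acid, had a log2 change of -0.35 (adjusted p = 0.0297), and Uap1l1, a relative of Uap1, one of 0.22 (0.0251). Gnpda2, the paralog of Gnpda1, was at 11.5 ± 1.83 FPKM in OGD and 9.62 ± 1.57 FPKM in Control (SD, n = 4 each; log2 change 0.23, limma, adjusted p = 0.156) and was named after its value was seen. The call on Cmas was lost without OGD replicate 1 or 2 or Control replicate 1, 2 or 3 (adjusted p = 0.0513 to 0.0847), that on Uap1l1 without OGD replicate 4 or Control replicate 2 or 3 (0.0529 to 0.0706). Cmas was also lost with no filter (0.0593) and Uap1l1 with median-centring (0.0557). Leaving out libraries gave 0 rises (OGD replicate 4, Control replicate 2 or 3) or 2 (OGD replicate 2 or Control replicate 1), and 1 fall without Control replicate 2.

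Lysosomal enzymes that free N-acetylglucosamine, the substrate of Nagk, gave 1 rise and 0 falls among 9 tested genes, beside 22.7% rising and 26.8% falling among all genes, with a median log2 change of -0.03. The rise was that of Aga, aspartylglucosaminidase, at 21.5 ± 1.18 FPKM in OGD and 18.5 ± 0.758 FPKM in Control (SD, n = 4 each; log2 change 0.21, limma, adjusted p = 0.0226). It was lost without OGD replicate 3 (0.0636), Control replicate 2 (0.0568) or Control replicate 3 (0.0674), or with median-centring (0.0507), and the list then had 0 rises. Without OGD replicate 4 it had 2 rises and 1 fall, and without OGD replicate 1 it had 1 fall.

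Among proteins known to bind Ogt or to recruit it, 6 of 14 tested genes rose, 2 fell and 6 did not pass, beside 22.7% rising and 26.8% falling among all genes, with a median log2 change of 0.23. Hcfc1, a chromatin cofactor that Ogt modifies and cleaves, had 11.2, 11.9, 11.5 and 9.03 FPKM in OGD replicates 1 to 4, against 12.4, 17.4, 16.5 and 15.8 FPKM in Control replicates 1 to 4. The groups did not overlap, though Control replicate 1 lay close to the OGD libraries, and the log2 change was -0.47 ± 0.11 (SE, limma, adjusted p = 0.00613). Trak2, a mitochondrial transport adaptor, fell too (log2 change -0.39). Tet2 and Tet3, DNA demethylases that bind Ogt, rose by 0.39 and 0.54 on the log2 scale (limma, adjusted p = 0.0308 and 0.0291). Both calls were lost without OGD replicate 1 or 2 or Control replicate 1 or 4, and that on Tet3 also without OGD replicate 3 (adjusted p = 0.0525 to 0.0863). With no filter both were lost as well (0.0630 for Tet2 and 0.0674 for Tet3). Without Control replicate 1, or without Control replicate 4, 3 of the list rose.

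Of the transcription factors reported to act on hexosamine genes, 2 of 4 tested rose and 1 fell, beside 22.7% rising and 26.8% falling among all genes, with a median log2 change of 0.76. Atf4, the factor of the integrated stress response, averaged 255.2 ± 20.9 FPKM in OGD and 93.1 ± 4.51 FPKM in Control (SD, n = 4 each; log2 change 1.44), and Ddit3, which acts downstream of it, averaged 38.4 ± 5.17 FPKM in OGD and 6.00 ± 0.334 FPKM in Control (log2 change 2.49). Xbp1, known in mice as an inducer of Gfpt1, fell to 28.9 ± 2.13 FPKM in OGD, against 42.7 ± 3.14 FPKM in Control (log2 change -0.55, limma, adjusted p = 0.000196). The value per gene does not tell the spliced, active form of Xbp1 from the unspliced one. Gfpt1 itself kept overlapping levels in the same libraries.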

How the data were processed

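Per the labels' protocols, total RNA was made into libraries with Agilent's SureSelect strand-specific kit. The series' design text names an Illumina MiSeq. The authors deposited 1 table of FPKM per gene for 8 samples, per the file headers. Per the submitters' processing notes, Trimmomatic and FastQC were used and the build was rn6 (Rnor_6.0); not given in the sources used here are the aligner, FPKM program, annotation and use of strand, so values of overlapping genes are uncertain. FPKM holds no counts, and values of all genes shift when abundant ones change.

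Samples were grouped by their titles. The test covered the 11149 of 32662 genes that reached 1 FPKM in 4 or more samples, on log2(FPKM + 1), in limma 3.58.1 (R 4.3.3) with trended empirical Bayes and group as the only term (Benjamini-Hochberg over all tested genes, threshold 0.05). The genes, lists and tests were chosen with earlier results of these data known. Described by name were the 9 genes, the 2 largest called rises and falls of each list, the 2 highest genes of each marker list and the 5 profiles nearest to Mgea5. Named outside this rule were Eogt and Gnpda2, added after their values were seen, and further markers, named by their call or level. Slc38a2 is named in a figure caption for its large change. E2f1, Itgam, Lhfpl3 and Pecam1, which the lists name, were not analysed here. For depth, genes up to 0.5 FPKM were used, where 73.7% to 76.6% of ratios to Control replicate 1 were ratios of small whole numbers within 0.01 on the log2 scale. In a simulated OGD comparison (10979 genes tested, changes set only in genes above a set Control level) the procedure recovered 44% of the 1.25-fold, 90% of the 1.5-fold, 98% of the 2-fold and 100% of the 4-fold changes, and made 13 false calls. Gfpt2, Gnpnat1, Pgm3, Uap1 and Nagk lay below that level, so no rate was measured for genes like them. Far fewer genes were changed in the simulation than were called in the data, so its rates need not hold there. Promoters were matched by symbol, Mgea5 through its newer symbol Oga, for 7 of 9 genes; Gfpt2 and Pgm3 had no entry. Figures used matplotlib 3.10.9, and tables numpy 2.4.6 and pandas 2.3.3 under Python 3.11.15.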

Additional observations from a re-analysis of the deposited data

Results flagged for a closer look

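A library far from the rest of its group was seen 3 times among 104 groups of 4, and chance alone gives about 5.2 such cases. Ogt was at 22.3 FPKM in Control replicate 2, above the other Controls, and its log2 change stayed past the test under all 16 alternatives run (0.42 to 0.50). Has2 was at 0.681 FPKM in Control replicate 1, above the other Controls. C1qa, a microglial marker, was at 81.9 FPKM in Control replicate 4.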

How the results depend on the processing

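The alternatives were quantile normalization, median-centring, rescaling outside mitochondrially encoded genes, limma without trend, the replicate block, a pseudocount of 0.1, a minimum of 5 FPKM, no minimum at all and each of the 8 libraries left out. Ogt (log2 change 0.42 to 0.50), Gnpda1 (-0.95 to -0.81) and Pgm3 (-0.57 to -0.44) kept their direction and call under all 16, Gfpt1, Gnpnat1 and Nagk their direction and the lack of a call under all 16, and Gfpt2 under the 15 that tested it. Mgea5 ranged from -2.83, with a pseudocount of 0.1, to -2.49. Uap1 kept its direction and lost its call in 8 of 15. No result reversed. All genes called ranged from 2123 to 2728 higher and from 2337 to 3245 lower.

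Small list counts moved. For amino sugar and sialic acid genes, 0 rose with median-centring and 1 fell with no filter, and leaving out libraries gave 0 to 2 rises and 1 to 4 falls. For transferases, 2 rose with rescaling outside mitochondrial genes and 0 with a filter of 5 FPKM, which removes Has2, and leaving out libraries gave 1 to 2 rises. For lysosomal genes, 0 rose with median-centring and 1 fell with median-centring, with no trend and with the replicate block, and leaving out libraries gave 0 to 2 rises and 0 to 1 falls. For Ogt partner genes leaving out libraries gave 3 to 7 rises. The cause was not tested.

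No pairing by replicate number was seen: deviations of same-numbered samples correlated at -0.22 to 0.16 across genes, and 2 of 8 samples were closest to their own number. With so few samples a weak pairing could be missed. With the replicate block 2497 genes were higher and 3012 lower, and the calls on the 8 pathway genes were those without it. Depth is known only relative to 1 library, so no counting interval could be given for low genes such as Gfpt2.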
